A study of Mus musculus with 5 samples.

Results

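The neutrophil-attracting CXC chemokine genes Cxcl1, Cxcl2, Cxcl3, Cxcl5 and Cxcl15 and the receptor gene Cxcr2 were followed in single-cell RNA sequencing of mouse lung. The 6 genes were taken by exact symbol from the 42454 features of the deposited count matrices. No cutoff on their values was used, but earlier results of these data were known when they were chosen. Of the 6, 4 had at least 1 count in each unsorted library at pnd7, and 5 had at least 1 count in the sorted library and in each library at pnd60.

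CXC chemokines with the motif glutamate, leucine and arginine before the first cysteines bind CXCR2, a G protein-coupled receptor of neutrophils, and draw these cells out of the blood towards the source of the chemokine. Macrophages, epithelial cells and stromal cells transcribe such chemokines within hours of signals from Toll-like receptors, interleukin 1 or tumor necrosis factor, through the transcription factor NF-κB. In the lung, alveolar macrophages and the epithelium are known sources, and newborn lungs that breathe high oxygen are known to take up neutrophils.

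All mice were C57BL/6J. Newborns under 12 h old were kept in room air or in more than 95% O2 for 3 days and then in room air, and lungs were taken at postnatal day 7 or 60 (pnd7, pnd60), which gave unsorted libraries named air pnd7, hyperoxia pnd7, air pnd60 and hyperoxia pnd60. A 5th library, from hyperoxia-exposed mice at pnd7, held cells sorted for C12FDG, a fluorescent substrate of the β-galactosidase that marks senescent cells and that macrophages can also carry. The sorted library pooled 3 mice, the number of mice behind the other libraries is not given in the sources used here, and each condition had 1 library. The study took its unsorted libraries from an earlier published dataset, and it describes no library of sorted cells from air. Sorting therefore cannot be told apart from a difference between experiments in any comparison of sorted with unsorted cells. Against air, it also cannot be told apart from exposure.

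A single library per condition gives no replicate error, and differences are therefore described without a test. Levels are summed counts of unique molecular identifiers (UMIs) scaled to the library total (CPM), with exact Poisson 95% intervals, ratios are log2 ratios of CPM with binomial 95% intervals, and all intervals cover counting error only. After the filter on genes and mitochondrial counts, the libraries held 493 to 4756 cells and 7880365 to 16648251 counts. The median was 2168 to 7119.5 counts per cell in the unsorted libraries and 15529 in the sorted one. Libraries shared at most 7 of their deposited barcodes in any pair. Hemoglobin took 39.2% and 37.6% of all deposited counts in the unsorted libraries at pnd7 and 0.644% to 3.31% in the others. Of the 493 sorted cells, 85.2% were macrophage-like, a share of 5.03% to 5.38% in the unsorted libraries.

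The 5 chemokine genes lie within 147 kb of mouse chromosome 5 (GRCm38.p6, the assembly of the mm10 build that the submitters' notes name), and Cxcr2 lies on chromosome 1 at chr1:74153994-74161246. In order along chromosome 5 they are Cxcl5 (chr5:90759298-90761625), Cxcl3 (chr5:90786101-90788093), Cxcl15 (chr5:90794534-90803067), Cxcl1 (chr5:90891245-90893121) and Cxcl2 (chr5:90903899-90905938). The 120 bases before the annotated start are shown for the 5 genes with an entry in the RefSeq promoter table, all on the plus strand, because the neighbouring genes Cxcl1 and Cxcl2 were both higher in the sorted library and share a stretch here. The windows are chr5:90891125-90891244 for Cxcl1, chr5:90903779-90903898 for Cxcl2, chr5:90785981-90786100 for Cxcl3, chr5:90794414-90794533 for Cxcl15 and chr1:74153874-74153993 for Cxcr2. Capitals mark TATAAA, the TATA box, and GGGAATTTCC, the match of an NF-κB spacing motif (3 G, any 5 bases, 2 C) that most of these windows share.
Cxcl1: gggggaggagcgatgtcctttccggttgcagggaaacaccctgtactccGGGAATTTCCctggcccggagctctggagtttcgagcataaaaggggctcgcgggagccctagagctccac
Cxcl2: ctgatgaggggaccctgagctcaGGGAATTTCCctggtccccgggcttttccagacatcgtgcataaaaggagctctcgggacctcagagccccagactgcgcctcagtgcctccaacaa
Cxcl3: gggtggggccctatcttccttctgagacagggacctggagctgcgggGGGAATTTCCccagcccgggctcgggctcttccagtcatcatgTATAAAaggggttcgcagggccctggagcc
Cxcl15: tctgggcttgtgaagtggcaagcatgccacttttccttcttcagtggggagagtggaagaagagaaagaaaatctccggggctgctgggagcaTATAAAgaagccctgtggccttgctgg
Cxcr2: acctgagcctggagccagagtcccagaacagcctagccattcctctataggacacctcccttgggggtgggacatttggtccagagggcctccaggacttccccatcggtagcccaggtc
Cxcl1, Cxcl2 and Cxcl3 each held GGGAATTTCC once, at bases -71 to -62, -97 to -88 and -73 to -64 from the start. On either strand of the 250 bases before the start, 28 of 32851 promoters in the table held these letters, a share of 0.0852% (0.0457% within the 120 bases shown), but the letters were read from the members themselves. The spacing motif itself, which contains these letters, was in 45.8% of promoters (30.9% within 120 bases) and also matched Cxcr2 once, on the minus strand at bases -26 to -17. TATAAA stood at bases -30 to -25 of Cxcl3 and -27 to -22 of Cxcl15 and was in 12.4% of promoters (6.34% within 120 bases). The AP-1 motif TGANTCA, in 6.75% of promoters (3.41% within 120 bases), was in none of the 5. A match of letters is a description of the window and was not tested as a binding site.

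The feature list held numbered copies of 3 of the 6 genes, Cxcl3_1, Cxcl5_1 and Cxcl15_1, and none of Cxcl1, Cxcl2 and Cxcr2. How reads that match both copies of a gene were counted is not given in the sources used here. Over the 5 libraries, Cxcl15_1 had 124 counts, Cxcl3_1 had 2 and Cxcl5_1 had 0; the last 2 features were chosen after their values were seen. Among 1102 protein-coding symbols with a numbered copy, 45.6% had at most 3 counts in all 5 libraries together. Among 20265 protein-coding symbols without one, that share was 24.3%. Low counts of Cxcl3 and Cxcl5 therefore cannot be read as missing transcripts, and the level of Cxcl15 may be counted too low.

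Cxcl2, which encodes macrophage inflammatory protein 2, had 407 counts or 24.4 CPM (95% interval 22.1 to 26.9) in air pnd7 and 488 counts or 35.9 CPM (32.8 to 39.3) in hyperoxia pnd7. The sorted library had 16547 counts or 2100 CPM (2068 to 2132). At pnd60, Cxcl2 stood at 116 CPM (111 to 122) in air and 102 CPM (97.5 to 107) in hyperoxia. The sorted library was highest, the libraries at pnd60 came next and those at pnd7 were lowest, and no pair of intervals overlapped between these 3 levels. Cxcl1, which encodes the chemokine KC, stood at 5.65 CPM (4.56 to 6.91) in air pnd7, 7.14 CPM (5.79 to 8.72) in hyperoxia pnd7 and 105 CPM (97.9 to 112) in the sorted library. At pnd60, Cxcl1 was at 4.07 CPM (3.11 to 5.24) in air and 4.29 CPM (3.35 to 5.42) in hyperoxia. The sorted library stood apart for Cxcl1 as well, while its intervals in the 2 libraries at pnd60 overlapped with each other and with that of air pnd7.

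Cxcl3 and Cxcl5, whose products are further ligands of CXCR2, were almost without counts. Cxcl3 had 2 counts in the sorted library and 0 in the 4 others, where 3 counts would be 0.180 to 0.221 CPM. Cxcl5 had 2 counts in air pnd60, 4 in hyperoxia pnd60 and 0 in the 3 libraries at pnd7. Both genes have a numbered copy, and no ratio of either is given by itself. Even so, Cxcl5 enters the medians over the members for hyperoxia over air at pnd60 and for age in hyperoxia. For age in hyperoxia, the median of 0.13 is the bound of Cxcl5.

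Cxcl15, or lungkine, is a chemokine of the lung epithelium. It was at 9.01 CPM (7.63 to 10.6) in air pnd7, 13.2 CPM (11.3 to 15.3) in hyperoxia pnd7, 9.70 CPM (8.17 to 11.4) in air pnd60 and 9.44 CPM (8.01 to 11.0) in hyperoxia pnd60. In the sorted library it was at 16 counts or 2.03 CPM (1.16 to 3.30), below the interval of each unsorted library. The receptor Cxcr2 was at 6.13 CPM (5.0 to 7.44) in air pnd7, 6.70 CPM (5.40 to 8.23) in hyperoxia pnd7 and 5.58 CPM (4.06 to 7.50) in the sorted library. It was at 6.24 CPM (5.03 to 7.65) in air pnd60 and 11.2 CPM (9.69 to 13) in hyperoxia pnd60. The intervals of the first 4 of these Cxcr2 levels overlapped, and hyperoxia pnd60 lay above all of them.

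**Figure D1:**
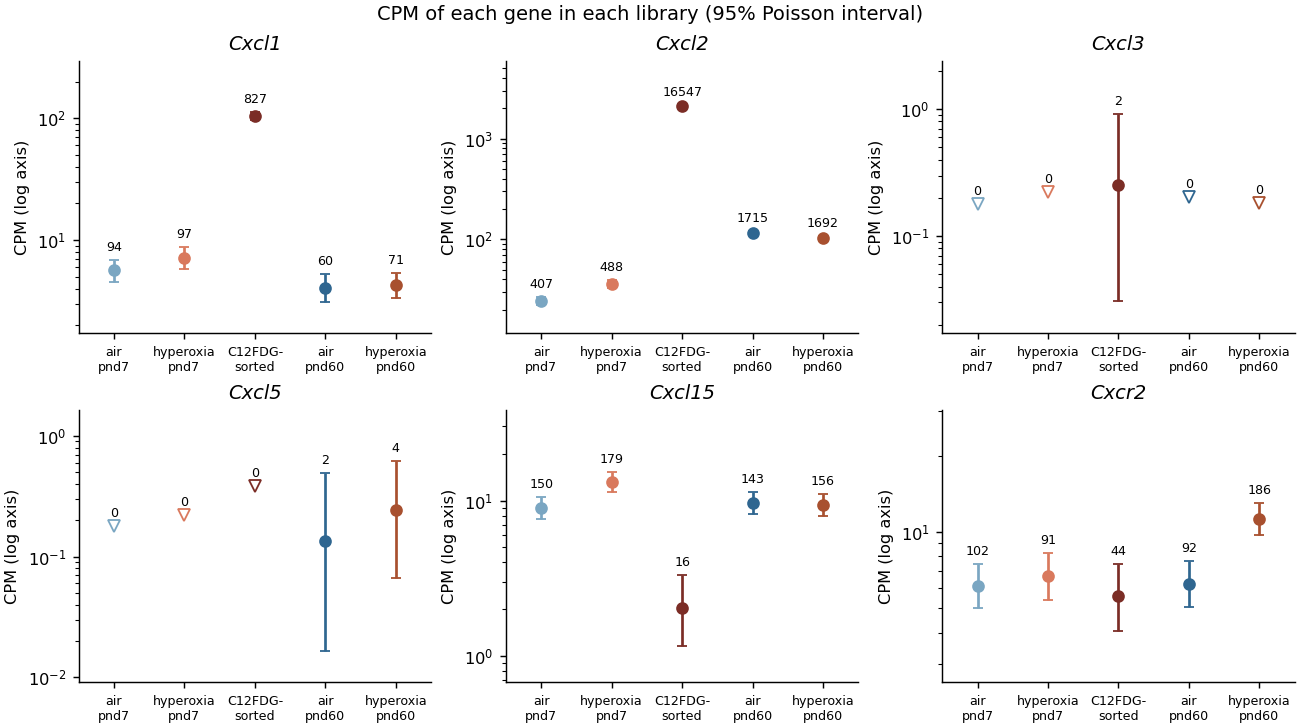
Level of each gene in CPM (log axis) in the 5 libraries, as points with 95% Poisson intervals and the number of counts above them. Open triangles mark libraries with 0 counts, placed at the level of 3 counts. Cxcl1 and Cxcl2 are highest in the sorted library, where Cxcl15 is lowest.

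Few cells held most of the chemokine counts. In the sorted library, 47.9% of cells had a Cxcl2 count, yet 15 of the 493 cells held at least 50% of the counts and 1 cell held 1514 of them. In air pnd7, 48 cells had a Cxcl2 count and 4 of them held at least 50% of the total, with 85 counts in 1 cell. In hyperoxia pnd7, 46 cells had a count and 5 held at least 50%. At pnd60 the counts were spread over more cells, with 36 cells in air and 38 in hyperoxia behind at least 50% of them. After each cell was thinned to 1000 counts, the share of cells with a Cxcl2 count was 1.13% in air pnd7, 1.93% in hyperoxia pnd7, 28.0% in the sorted library, 3.39% in air pnd60 and 3.06% in hyperoxia pnd60. Cxcl1 was as uneven, with 44 sorted cells that had a count and 5 that held at least 50% of the total. Cxcl15 counts lay in 104 to 123 cells of each unsorted library, at no more than 7 per cell, so its level did not rest on single cells.

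At pnd7, Cxcl2 and Cxcl15 were higher in hyperoxia than in air by a log2 ratio of 0.56 (95% interval 0.36 to 0.75) for Cxcl2 and 0.55 (0.23 to 0.87) for Cxcl15. Neither reached a 2-fold difference, and no member did. For Cxcl2, 98.2% of the 12591 genes with at least 100 counts in both libraries together had a lower ratio, and for Cxcl15 98.1%. The interval of Cxcl1 (0.34, -0.08 to 0.76) and that of Cxcr2 (0.13, -0.29 to 0.55) included 0. Of all genes tested, 0.183% were at least 2-fold higher and 0.802% at least 2-fold lower. Without the cell with the most Cxcl2 counts of each library the ratio of Cxcl2 was 0.44, and as a mean of CPM per cell it was 1.26. With each cell thinned to 1000 counts, which gives cells equal weight, the ratios were 1.03 for Cxcl2, 1.30 for Cxcl15 and 1.11 for Cxcl1. They rest on few cells and are not called past 2-fold. After thinning, cells with a count in air and hyperoxia numbered 26 and 24 for Cxcl2, 12 and 16 for Cxcl15 and 5 and 6 for Cxcl1. Summed neutrophil markers, 12 genes with counts for all 12 in both libraries, stood at 920 CPM in air and 1275 CPM in hyperoxia. The sum does not hold for each gene, as Csf3r, 1 of the 12, stood at 13.3 CPM in air and 9.06 CPM in hyperoxia. Summed alveolar macrophage markers stood at 453 and 470 CPM. The part of these cell types in the ratios was not tested.

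In the sorted cells, Cxcl2 was 58.4-fold and Cxcl1 14.7-fold higher than in unsorted cells of hyperoxia-exposed lungs at the same age. On the log2 scale these ratios were 5.87 (5.74 to 6.00) and 3.88 (3.57 to 4.20). Cxcl15 was lower, by a log2 ratio of -2.70 (-3.54 to -1.96), and the interval of Cxcr2 (-0.26, -0.82 to 0.27) included 0. Over all 11340 genes tested, 8.17% were at least 2-fold higher, 36.4% were at least 2-fold lower and the median was -0.55. Against air pnd7, the ratio was 4.22 (3.91 to 4.54) for Cxcl1, -2.15 (-2.99 to -1.40) for Cxcl15 and -0.13 (-0.68 to 0.39) for Cxcr2, where 7.81% of 11851 genes were at least 2-fold higher, 38.5% at least 2-fold lower and the median was -0.59. Cxcl2 stood at 6.42 (6.28 to 6.57) in that comparison, which shares the sorted library with the former. The direction of Cxcl1, Cxcl2 and Cxcl15 was the same under all scalings of the library totals, whereas the ratio of Cxcr2 over unsorted hyperoxia turned to 0.28 with totals rescaled to a median of 0, to 0.26 with TMM factors and to 0.67 with all deposited barcodes. The sorted cells had summed alveolar macrophage markers at 3287 CPM and C1q macrophage markers at 3274 CPM, against 470 and 1184 CPM in unsorted hyperoxia pnd7. Neutrophil markers were at 128 CPM, with counts for 7 of the 12. The parts of these shifts in the ratios over all cells were not tested, and ratios within cell classes are given further on.

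At pnd60, Cxcr2 was higher in mice exposed to hyperoxia as newborns than in air, by a log2 ratio of 0.85 (0.48 to 1.23), and 99.6% of 12928 genes tested had a lower ratio. Cxcl2 was slightly lower in hyperoxia (-0.18, -0.28 to -0.09). Cxcl1 (0.08, -0.44 to 0.60) and Cxcl15 (-0.04, -0.38 to 0.30) had intervals that included 0. No member reached a 2-fold difference, as did 0.271% of all genes upward and 0.248% downward. Neutrophil-like cells were 1.26% of the hyperoxia cells and 0.705% of the air cells, and summed neutrophil markers stood at 930 and 686 CPM. These values are for kept cells only. Barcodes removed by the main filter held 10033 neutrophil marker counts in hyperoxia and 8640 in air, against 15369 and 10111 in kept cells. For Cxcr2, the removed barcodes held 123 counts in hyperoxia and 115 in air, against 186 and 92 in kept cells. The part of the filter in the neutrophil-like shares and marker levels was not tested. With barcodes of 500 to 8000 genes and under 10% mitochondrial counts, the ratio of Cxcr2 was 0.35 (0.08 to 0.62), and with each cell thinned it was 1.06.

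With age, Cxcl2 alone passed 2-fold. It was higher at pnd60 than at pnd7 by a log2 ratio of 2.25 (2.09 to 2.41) in air, where 15.1% of 13003 genes were at least 2-fold higher and 9.35% at least 2-fold lower. In hyperoxia the ratio was 1.51 (1.36 to 1.66), where 19.1% of 12923 genes were at least 2-fold higher and 9.49% at least 2-fold lower. The medians of all genes in these comparisons were 0.23 and 0.29. Cxcl1 was at -0.47 (-0.96 to 0.01) in air and -0.73 (-1.20 to -0.28) in hyperoxia, Cxcl15 at -0.48 (-0.80 to -0.16) in hyperoxia and Cxcr2 at 0.75 (0.38 to 1.13) in hyperoxia. In air, the intervals of Cxcl15 and Cxcr2 included 0. In hyperoxia the ratio of Cxcl2 stayed under 2-fold as a mean of CPM per cell (0.80) and after thinning (0.90), while with all deposited barcodes Cxcr2 was at 1.90 in air and 2.25 in hyperoxia. The median cell held 2168 and 2315.5 counts at pnd60, against 3915 and 7119.5 at pnd7, and the part of this depth in the ratios was not tested.

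**Figure D2:**
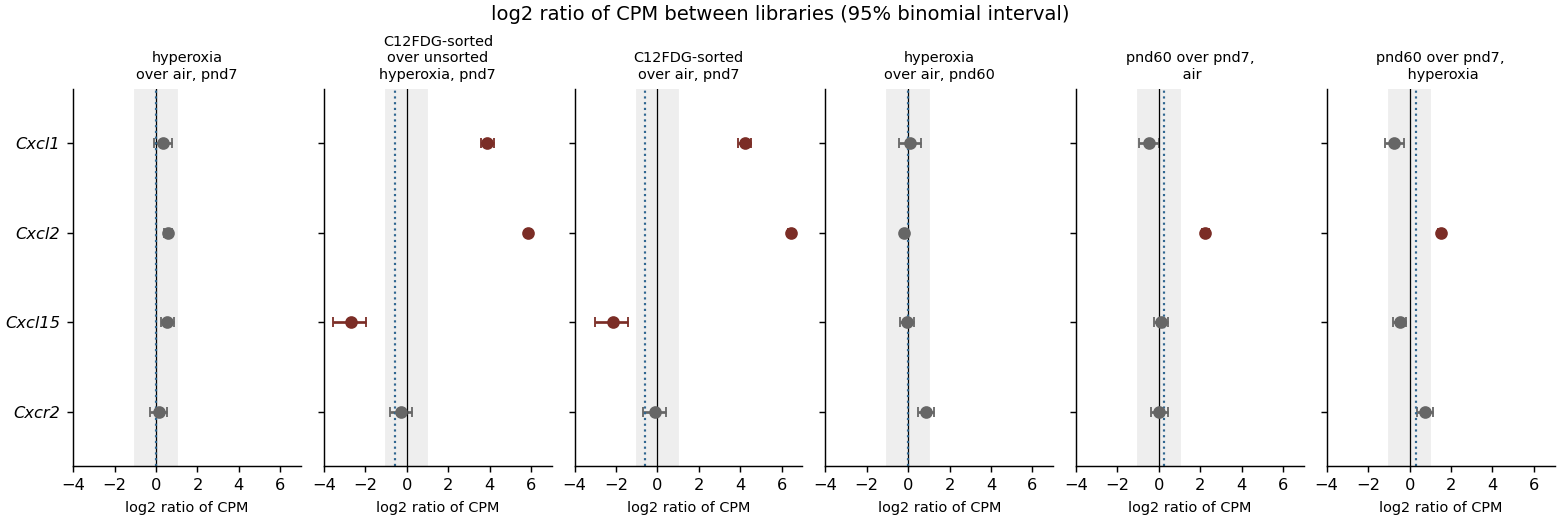
Log2 ratio of CPM (x axis) of the 4 genes with at least 100 counts in each of 6 comparisons, with 95% binomial intervals. The grey band is less than 2-fold and the dotted line is the median of all genes tested. Cxcl1, Cxcl2 and Cxcl15 leave the band in the comparisons of sorted cells, and Cxcl2 also with age.

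Cell classes were named from markers in clusters built without the 6 genes. Over the 4 unsorted libraries, 89.9% of Cxcl2 counts (89.0% to 90.8%) lay in macrophage-like, monocyte-like and neutrophil-like cells, which made up 12.0% of cells. Of Cxcl15 counts, 84.6% (81.5% to 87.3%) lay in type II-like and club-like cells, 10.4% of cells, and the club-like cells held none. Of Cxcr2 counts, 60.5% (55.9% to 65.0%) lay in neutrophil-like cells, which were 0.952% of cells. The classes that held Cxcl1 differed between the unsorted libraries. Macrophage-like cells held 41.5% of its counts in air pnd7, 3.09% in hyperoxia pnd7, 66.7% in air pnd60 and 59.2% in hyperoxia pnd60. Mesenchymal-like and endothelial-like cells held 36.2%, 49.5%, 11.7% and 11.3% in that order, of which the endothelial-like cells held none. Macrophage-like cells were 5.03% to 5.38% of cells in these libraries, and mesenchymal-like and endothelial-like cells together 24.05% to 38.12%. Cxcl1 counts lay in 28 to 33 cells per library. At pnd7, 1 cell held 20 of 94 counts in air and 25 of 97 in hyperoxia. At pnd60, 1 cell held 12 of 60 counts in air and 11 of 71 in hyperoxia. These shares can therefore shift with a few cells.

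**Figure D3:**
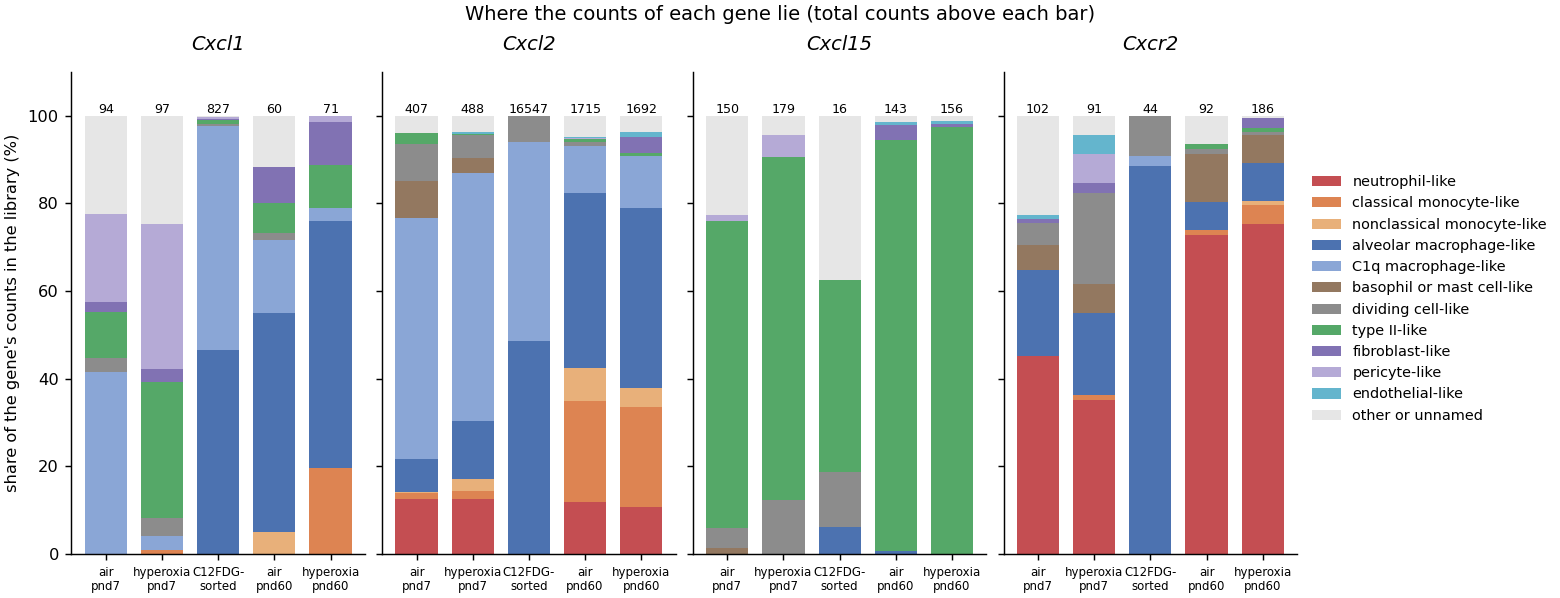
Share of each gene's counts (y axis, percent) by cell class in the 5 libraries, with the number of counts above each bar. Cxcl15 counts lie mostly in type II-like cells of the unsorted libraries, Cxcr2 counts in neutrophil-like cells at pnd60, and Cxcl2 counts in macrophage-like cells of all libraries.

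Macrophage-like cells fell into C1q macrophage-like cells, with the complement genes C1qa, C1qb and C1qc in front, and alveolar macrophage-like cells. C1q macrophage-like cells of all libraries lay in 1 cluster (cluster 30). Alveolar macrophage-like cells lay mostly in cluster 17 at pnd7, cluster 39 at pnd60 and cluster 41 in the sorted library. Of the 376 cells of cluster 41, 371 came from the sorted library, its leading genes were Hmox1, Slc7a11, Mt1, Mt2, Mmp12 and Gdf15, among them genes of oxidative and metal stress, and 7 of the 10 alveolar macrophage markers were raised in it but none was among its 10 leading genes. A cluster of this kind may stand for the library rather than a cell type.

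C1q macrophage-like cells had Cxcl2 at 822 CPM in air pnd7 (23 cells), 1153 CPM in hyperoxia pnd7 (19 cells) and 9972 CPM in the sorted library (49 cells). At pnd60 they were at 782 CPM in air and 882 CPM in hyperoxia. A Cxcl2 count was found in 46 of the 49 sorted cells, against 9 of 23 in air pnd7 and 10 of 19 in hyperoxia pnd7. These cells were not thinned to equal depth for this count. The whole libraries had medians of 15529 counts per cell in the sorted one, 3915 in air pnd7 and 7119.5 in hyperoxia pnd7. The ratio of pnd60 over pnd7 was -0.07 (-0.36 to 0.22) in air (14.8% of 802 genes at least 2-fold higher and 17.1% lower) and that of hyperoxia over air was 0.17 (-0.12 to 0.47) at pnd60 (0.408% of 736 genes at least 2-fold higher and 1.09% lower), both with intervals that included 0. No ratio was formed between hyperoxia pnd7 and air pnd7. The sorted cells were higher than air pnd7 by a log2 ratio of 3.60 (3.41 to 3.80). In this class, 18% of 1685 genes were at least 2-fold higher in sorted cells than in air and 9.79% at least 2-fold lower. Median CPM per cell was 3878 in the sorted library, 0 in air pnd7, 73.1 in hyperoxia pnd7, 276 in air pnd60 and 84.9 in hyperoxia pnd60.

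Alveolar macrophage-like cells had Cxcl2 at 30.8 CPM in air pnd7 (94 cells), 98.6 CPM in hyperoxia pnd7 (48 cells), 1449 CPM in the sorted library (371 cells), 517 CPM in air pnd60 (170 cells) and 464 CPM in hyperoxia pnd60 (183 cells). Cells with a count numbered 7 of 94, 8 of 48, 162 of 371, 68 of 170 and 86 of 183 in that order. In every library most alveolar macrophage-like cells had no Cxcl2 count, and the highest sorted cell reached 48476 CPM. The sorted cells were higher than unsorted hyperoxia pnd7 by 3.88 (3.52 to 4.26), where 4.61% of 5987 genes were at least 2-fold higher and 12.7% at least 2-fold lower, and higher than air pnd7 by 5.55 (5.04 to 6.12), where 4.22% of 6161 genes were at least 2-fold higher. Thinned to 1000 counts per cell, 3.19% of cells in air pnd7, 8.33% in hyperoxia pnd7, 24.8% of sorted cells, 21.2% in air pnd60 and 19.1% in hyperoxia pnd60 had a Cxcl2 count. B cell-like cells of the unsorted libraries should lack Cxcl2. After the same thinning, they had one in 0% at pnd7 and in 0.486% and 0.239% of cells at pnd60. Their medians at pnd60 were 1593 and 1685 counts per cell before thinning. The sorted library had no B cell-like cell, so stray Cxcl2 counts could not be read in this way there.

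Hyperoxia and age were also compared within alveolar macrophage-like cells for Cxcl2. At pnd7, hyperoxia was higher than air by 1.68 (1.03 to 2.35), from 64 and 30 counts. This is under the minimum of 100 counts, so Cxcl2 is not among the 2930 genes of which 0.273% were at least 2-fold higher and 0.444% at least 2-fold lower. With each library clustered on its own this ratio was 0.78. At pnd60 the ratio was -0.16 (-0.31 to -0.00), and 0.0414% of 4831 genes were at least 2-fold higher and 0.103% at least 2-fold lower. From pnd7 to pnd60 it was 4.07 (3.54 to 4.65) in air, with 4.45% of 4116 genes at least 2-fold higher and 2.02% lower, and 2.24 (1.87 to 2.63) in hyperoxia, with 4.96% of 3908 genes at least 2-fold higher and 1.79% lower. The age comparison sets cluster 17 against cluster 39. Taking both macrophage-like classes together, sorted cells were higher than unsorted hyperoxia by 2.69 (2.54 to 2.85), where 4.6% of 6493 genes were at least 2-fold higher, and hyperoxia higher than air at pnd7 by 0.91 (0.67 to 1.15), where 0.528% of 3790 genes were and 0.844% were at least 2-fold lower. A further 988 Cxcl2 counts of the sorted library lay in 43 cells of cluster 18, which had all 6 markers of dividing cells and all 10 of alveolar macrophages raised, at 889 CPM.

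**Figure D4:**
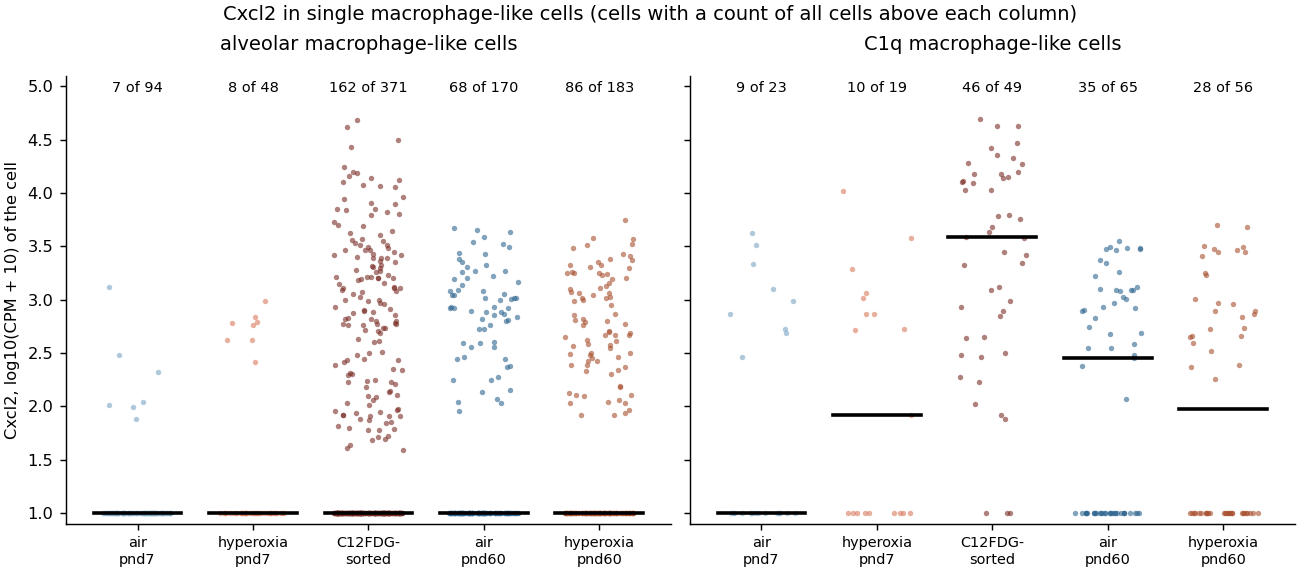
Cxcl2 in single alveolar macrophage-like (left) and C1q macrophage-like cells (right) of each library, as log10(CPM + 10) on the y axis, with 1 point per cell and a bar at the median. Numbers above give the cells with a count of all cells. In the sorted library, 46 of 49 C1q macrophage-like cells and 162 of 371 alveolar macrophage-like cells have a count.

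Monocyte-like cells had few Cxcl2 counts at pnd7, whereas neutrophil-like cells had Cxcl2 counts at both ages. Classical monocyte-like cells were at 29.6 CPM (6 counts) in air pnd7 and 59.8 CPM (9 counts) in hyperoxia pnd7, and at 725 and 535 CPM at pnd60. Nonclassical monocyte-like cells were at 3.70 CPM (1 count) and 57.3 CPM (14 counts) at pnd7, and at 404 and 161 CPM at pnd60. With age in air the ratio of classical monocyte-like cells was 4.62 (3.48 to 6.07), where 9.29% of 1346 genes were at least 2-fold higher and 5.35% at least 2-fold lower. Neutrophil-like cells were at 771 and 935 CPM at pnd7 and at 3094 and 1642 CPM at pnd60, from 14 to 60 cells per library. At pnd60, Cxcl2 was lower in hyperoxia than in air in nonclassical monocyte-like cells by a log2 ratio of -1.33 (-1.77 to -0.90), where 0.673% of 1485 genes were at least 2-fold lower and 0.0673% at least 2-fold higher; with the wider filter on genes and mitochondrial counts it was -0.90. In neutrophil-like cells the ratio was -0.91 (-1.21 to -0.62), with 30.4% of the air counts in 1 cell, and in classical monocyte-like cells it was -0.44 (-0.65 to -0.23), where 0.165% of 2427 genes were at least 2-fold higher and 0.206% at least 2-fold lower. Counts in other classes came from few cells: 45 of the 61 counts of fibroblast-like cells in hyperoxia pnd60 were in 1 cell.

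**Figure D5:**
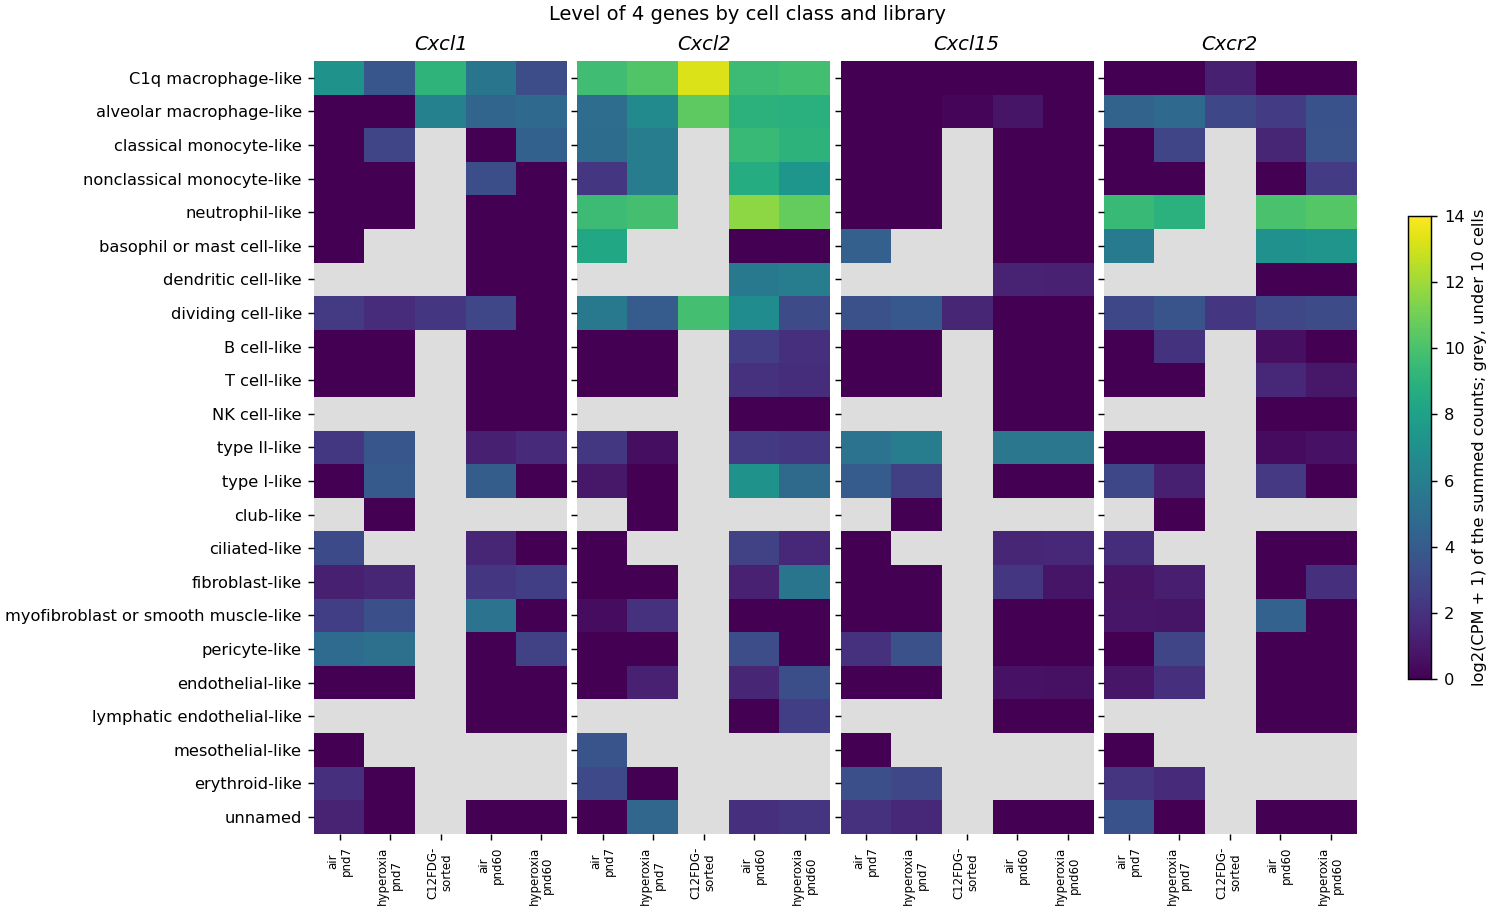
Level of Cxcl1, Cxcl2, Cxcl15 and Cxcr2 by cell class (rows) and library (columns), as log2(CPM + 1) of the summed counts. Grey marks classes with under 10 cells in a library. Cxcl2 is at 9972 CPM in sorted C1q macrophage-like cells, and Cxcr2 is at 490 to 1256 CPM in neutrophil-like cells.

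In the sorted library 97.7% of Cxcl1 counts were in macrophage-like cells. Alveolar macrophage-like cells had 386 counts or 69.7 CPM there and 0 counts in both unsorted libraries at pnd7 (94 cells in air, 48 in hyperoxia). With 0 set to the floor of 3 counts, the sorted cells were 15.1-fold higher than hyperoxia and 22.6-fold higher than air. These values rest on the floor and are not limits of an interval. Those 386 counts lay in 23 of 371 cells, and 143 of them were in 1 cell. At pnd60 this class had 30 counts or 22.7 CPM in air and 40 counts or 26.7 CPM in hyperoxia. C1q macrophage-like cells had Cxcl1 at 143 CPM in air pnd7, where 20 of 39 counts were in 1 cell, at 12.5 CPM (3 counts) in hyperoxia pnd7 and at 559 CPM in the sorted library. Sorted cells of this class were higher than air by 1.97 (1.49 to 2.48). Without the cell with the most Cxcl1 counts of each whole library, the ratio was 3.00. In air this left out the C1q macrophage-like cell with 20 counts. In the sorted library it left out an alveolar macrophage-like cell with 143 counts. The C1q macrophage-like cell with 132 of the 422 sorted counts stayed in, so the removal was on the air side only. Outside macrophages, pericyte-like cells were at 28.7 CPM in air pnd7 and 35.6 CPM in hyperoxia pnd7, and 25 of the 32 hyperoxia counts were in 1 cell. Type II-like cells were at 3.75 CPM in air pnd7 and 12.2 CPM in hyperoxia pnd7, a ratio of 1.70 (0.63 to 2.90) in which 18 of the 30 hyperoxia counts came from 1 cell. Neutrophil-like cells and endothelial-like cells had no Cxcl1 count in any library.

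Cxcl15 stayed with type II-like cells in each unsorted library. They were at 39.4 CPM in air pnd7, 57.1 CPM in hyperoxia pnd7, 46.1 CPM in air pnd60 and 46.6 CPM in hyperoxia pnd60. The ratio of hyperoxia over air within the class was 0.54 (0.16 to 0.91) at pnd7, 1.16 after thinning, and 0.02 (-0.33 to 0.36) at pnd60, against 0.55 and -0.04 over all cells. At pnd7, 0.403% of 5960 genes were at least 2-fold higher in hyperoxia in this class and 0.168% at least 2-fold lower, and at pnd60 0.111% of 7222 genes were higher and 0.0969% lower. The 8 type II-like cells among the 493 of the sorted library had 7 of its 16 counts, at 43.7 CPM (17.6 to 90.1). The part of the number of these cells in the low level of that library was not tested. The copy Cxcl15_1 had 27, 32, 28 and 35 counts in the unsorted libraries, from air pnd7 to hyperoxia pnd60, and 101 of these 122 counts were in type II-like cells.

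Cxcr2 was at 696 CPM (509 to 928) in neutrophil-like cells of air pnd7, 490 CPM (335 to 692) in hyperoxia pnd7, 1016 CPM (788 to 1291) in air pnd60 and 1256 CPM (1057 to 1482) in hyperoxia pnd60. A count was found in 80.6% to 87.5% of these cells, at medians of 1663 to 2890 counts per cell, and after thinning in 42.9% to 73.3%. In B cell-like cells of the unsorted libraries, which should lack Cxcr2, it was found in at most 1.54% before thinning and 0.0810% after it. Their medians were 1593 to 3887 counts per cell. Within neutrophil-like cells the ratio of hyperoxia over air at pnd60 was 0.31 (-0.12 to 0.75), whose interval included 0, while over all cells it was 0.85. In this class, 2.76% of 254 genes were at least 2-fold higher and 5.91% at least 2-fold lower. Of the Cxcr2 counts, neutrophil-like cells held 45.1% and 35.2% at pnd7 and 72.8% and 75.3% at pnd60. The sorted library had no neutrophil-like cell, and 39 of its 44 Cxcr2 counts were in alveolar macrophage-like cells. These were at 7.05 CPM (5.01 to 9.63), below 26.2 CPM (15.3 to 41.9) in the same class of unsorted hyperoxia pnd7. Basophil or mast cell-like cells also carried Cxcr2, at 56.1 to 159 CPM from 6 to 12 counts per library.

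Other genes of the neutrophil axis were read for the same comparisons. Levels and ratios of all gene lists are over whole libraries. Macrophage-like cells were 85.2% of the sorted library and 5.38% of unsorted hyperoxia pnd7. The part of this difference in the list values was not tested. In sorted over unsorted hyperoxia cells, 5 of 8 other chemokines and receptors with at least 100 counts were at least 2-fold higher and 3 at least 2-fold lower, with a median ratio of 1.17. In the same comparison 8.17% of all 11340 genes were higher and 36.4% lower by as much, and their median was -0.55. The macrophage chemokine Ccl3 was at 421 CPM in sorted cells and 92.6 CPM in unsorted hyperoxia, and C5ar1, the receptor of complement C5a, at 92.1 and 28.5 CPM. Ackr3, a receptor that takes up chemokine, was at 2.54 and 40.7 CPM. Of 14 inducers and regulators, 4 were higher and 2 lower, with a median of 0.55. Among them, Il1a was at 118 CPM in sorted cells and 4.42 CPM in unsorted hyperoxia and Tlr2, which encodes a receptor of bacterial lipopeptides, at 386 and 25.1 CPM. For granulopoiesis and release, 1 of 4 genes was higher and 3 lower, with Cxcr4, which holds neutrophils in the marrow, at 192 and 35.9 CPM and its ligand Cxcl12 at 2.03 and 130 CPM. For adhesion, 2 of 7 were higher and 2 lower, with the integrin chain Itgb2 at 392 and 70.1 CPM.

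At pnd7, 1 of the 8 other chemokines and receptors was at least 2-fold higher in hyperoxia than in air, the macrophage chemokine Ccl4 at 90.9 and 40.4 CPM, and no gene of the other lists passed 2-fold. Of all 12591 genes, 0.183% were at least 2-fold higher and 0.802% at least 2-fold lower. At pnd60 no gene of the lists passed 2-fold between hyperoxia and air, beside 0.271% higher and 0.248% lower of all 12928 genes. With shares this small, few list genes or none would pass 2-fold in any case. With age in air, 9 of 14 inducers and regulators were at least 2-fold higher at pnd60 and none lower, with a median of 1.13, and 4 of 7 adhesion genes were higher and none lower, beside 15.1% higher and 9.35% lower of all 13003 genes. Nfkbia, the inhibitor of NF-κB, was at 474 CPM in air pnd60 and 215 CPM in air pnd7, and Zfp36, which shortens the life of cytokine mRNAs, at 695 and 229 CPM. In hyperoxia, 9 of 14 inducers and regulators were again higher with age and none lower, with a median of 1.38, beside 19.1% higher and 9.49% lower of all 12923 genes. Cell classes differed with age as well. Air pnd7 had 120 B cell-like and 544 erythroid-like cells among 2308, and air pnd60 had 1238 and 9 among 4397. The part of these classes in the list values was not tested.

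Handling of cells can raise immediate early genes, and such genes were read beside the chemokines. In sorted over unsorted hyperoxia cells, 2 of 12 handling genes were at least 2-fold higher, Atf3 at 562 and 91.8 CPM and Ier3 at 293 and 54.7 CPM, and 8 were at least 2-fold lower, with a median of -1.51, beside 8.17% higher, 36.4% lower and a median of -0.55 over all genes. Fos was at 172 CPM in sorted cells and 934 CPM in unsorted hyperoxia, and Jun at 344 and 982 CPM. With age, 2 of 12 were at least 2-fold higher in air and 4 in hyperoxia, beside 15.1% and 19.1% of all genes. The part of handling in the chemokine levels was not tested.

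The genes most like each member across 62 points, each a cell class of at least 20 cells in 1 library, were found by Pearson r of log2(CPM + 1) over 14375 genes. Points share libraries and depths, and the values are a description. For Cxcl2 they were Nlrp3 (0.86), F630028O10Rik (0.85), Tlr2 (0.85), Lilr4b (0.82) and Clec4a2 (0.82). For Cxcr2 they were Aqp9 (0.80), S100a8 (0.79), Il1f9 (0.79), Mmp8 (0.78) and Ngp (0.75), and for Cxcl15 Trpv6 (0.94), Gm38580 (0.92), Stx19 (0.92), Fat2 (0.91) and Krt23 (0.91). Cxcl1 had weaker neighbours, from Atp6v0c-ps2 (0.63) through Fcna (0.62), Cstb (0.61) and Ms4a7 (0.61) to Fam20c (0.61), and its r with Cxcl2 was 0.41. The values for Cxcl3 and Cxcl5 rest on 2 and 6 counts and are not given.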

How the data were processed

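Unsorted and C12FDG-sorted mouse lung cells were measured in 5 libraries with the 10x Genomics 3′ chemistry. The authors deposited raw UMI counts per gene and barcode, made with Cell Ranger (3.1.0 per the matrix header) on mm10. The annotation is not given in the sources used here. The members and gene lists were chosen with earlier results of these data known. The filter of the study's methods was applied (over 700 and under 8000 genes per barcode, mitochondrial counts below 5%), with only 2 mitochondrial features in the list. Counts were summed per library or class, scaled to CPM and compared with intervals from scipy 1.17.1; no p-values were computed. A difference is called past 2-fold among genes with at least 100 counts in both groups together. With 0 counts in a group a floor of 3 counts gives a bound, which is not the limit of an interval. Clusters came from scanpy 1.11.5 and leidenalg 0.10.2 in Python 3.11.15 (3000 variable features without the members, 50 components, 15 neighbours, resolution 2, no integration). A cluster took the class with the most markers among its 10 leading genes. It was named "-like" where at least 3 markers of that class were raised 2-fold. Without a marker among those genes, at least 5 raised markers were needed. The share of markers raised then also had to be at least 2 times that of any other broad class, dividing cells aside. Clusters with a larger raised share of another broad class stayed unnamed. The rule was set after the clusters were seen, with 23 marker lists. Doublets called by Scrublet numbered 1, 4 and 2 at pnd7 and 138 and 156 at pnd60 and were kept in the main values; the few calls at pnd7 are no sign that doublets were absent. The genes named are the 6 members, up to 4 genes by value from each list and the 5 genes most like each member. Alternatives covered the filter, doublets, scaling (edgeR 4.0.16 TMM factors in R 4.3.3), thinning to 1000 counts, mean CPM per cell and the clustering. The code for ratios between whole libraries and their intervals was tested on simulated data, for genes with at least 100 counts in both libraries together. The simulated sums were independent Poisson draws, which the intervals also assume. The test therefore checks the code only and cannot show how the intervals hold for counts that lie in few cells. Bounds for groups at 0 counts and ratios within classes were not tested in this way.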

Additional observations from a re-analysis of the deposited data

Results flagged for a closer look

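The log2 ratio of hyperoxia over air for Cxcl2 was 0.56 at pnd7 and -0.18 at pnd60, with opposite signs and intervals that exclude 0. The intervals cover counting error only. At pnd7, 1 cell held 85 of the 407 Cxcl2 counts in air and 1 cell held 131 of the 488 in hyperoxia. The difference between the ages was not tested, since each condition had 1 library.

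Barcodes at or under the minimum of 700 genes, which the main filter left out and only the wider filter and the alternative with all barcodes used, held Cxcl2 and Cxcr2 at pnd60 above the level of the kept cells. Cxcl2 was at 343 CPM in air and 194 CPM in hyperoxia, against 116 and 102 CPM in kept cells. Cxcr2 was at 127 CPM (115 counts in 728 barcodes) in air and 151 CPM (123 counts in 866 barcodes) in hyperoxia, against 6.24 and 11.2 CPM in kept cells. Summed neutrophil markers in these barcodes were at 9474 and 12129 CPM, against 686 and 930 CPM in kept cells. At pnd7 such barcodes had 1 Cxcr2 count in each unsorted library, neutrophil markers at 6.40 and 6.48 CPM and Cxcl2 at 0.332 and 0.196 CPM. In the sorted library, 66 such barcodes held 98 Cxcl2 counts or 950 CPM (772 to 1158), against 2100 CPM in kept cells. The source of these counts, and their part in the level of the kept sorted cells, was not tested.

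The feature Cxcl15_1 had 27 counts in air pnd7, 32 in hyperoxia pnd7, 28 in air pnd60 and 35 in hyperoxia pnd60, above the limit of 3 counts that an empty feature allows.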

How the results depend on the processing

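No paired analysis was possible because every group held a single library. Of the summary values under all alternatives, 87 stayed within the interval of the main value, 26 moved outside it and none of the called values changed sign. For a median over the members, this interval runs from the median of their lower limits to the median of their upper limits. It is not a counting interval of the median and can be wide, as for age in hyperoxia (-0.80 to 1.13). Median log2 ratio of the members, main and moved values: hyperoxia over air at pnd7 0.44, thinned 1.07. Sorted over unsorted hyperoxia 1.81, with all barcodes 2.59, rescaled to a median of 0 2.35 and with TMM factors 2.33. Sorted over air 2.04, with all barcodes 2.81, rescaled 2.63, TMM 2.58 and thinned 2.74. Both medians of sorted cells lie between members of opposite direction and describe no single member. Over unsorted hyperoxia, Cxcl2 was at 5.87, Cxcl1 at 3.88, Cxcr2 at -0.26 and Cxcl15 at -2.70. Over air, these genes were at 6.42, 4.22, -0.13 and -2.15. From pnd7 to pnd60 in air 0.07, with 500 to 8000 genes 0.61 and with all barcodes 1.30. Inside its interval it turned to -0.16 rescaled, -0.17 with TMM factors, -0.31 as mean CPM and -0.11 thinned. From pnd7 to pnd60 in hyperoxia the median was 0.13, which is the bound of Cxcl5 from 4 counts against 0 set to the floor of 3. The highest alternative, 0.94, was the highest value of Cxcl5 as well. The median kept its sign in 7 of 11 alternatives, which ran from -0.25 to 0.94. For hyperoxia over air at pnd60 it was 0.08 and kept its sign in 10 of 11, from -0.06 to 0.25. Cxcl2 in macrophage-like cells was 2.69 for sorted over unsorted hyperoxia, 3.12 thinned and 3.25 without the top cell, and 0.91 for hyperoxia over air, 1.48 as mean CPM per cell. The Cxcr2 share in neutrophil-like cells was 60.5%, 71.8% with the wider filter, 79.9% as mean CPM and 81.1% thinned. The Cxcl2 share in myeloid classes was 89.9%, 94.4% with cells classed by their own markers, 92.4% without doublets, 91.5% with the wider filter, 93.8% as mean CPM and 94.3% thinned. The Cxcl15 share in type II-like and club-like cells was 84.6%, 72.8% with each library clustered on its own, 89.2% with cells classed by their own markers, 79.9% as mean CPM and 79.7% thinned. The Cxcl1 share in mesenchymal-like and endothelial-like cells was 30.1%, 24.3% as mean CPM. The causes were not tested. Leaving out the top cell of each library and leaving out dividing-like clusters were chosen after seeing the data. Alternatives that left 0 counts gave only bounds and no value. Counts of 30 or fewer within a class limit what can be read from it.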
